A study of Mus musculus with 24 samples.

Results

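The genes described here are 31 markers of Purkinje cells and of the inhibitory interneurons of the cerebellum, out of 43430 genes in the count table. They were chosen by name as known markers of Purkinje cells, of molecular layer interneurons and of Golgi interneurons, and were found by matching Ensembl identifiers to mouse symbols. All 31 were found, and all 31 were among the 15300 genes with enough counts to be tested. They fall into 6 transcription factors of Purkinje cells, 8 calcium binding proteins and small regulators, 10 proteins of glutamate, phospholipase and calcium signalling, 4 genes of GABA and glycine synthesis and transport, and 3 other interneuron markers.

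Purkinje cells are the only output neurons of the cerebellar cortex. They are GABAergic, receive glutamate from parallel and climbing fibres, and answer it through metabotropic receptors, phospholipase C beta and calcium release from internal stores. Basket and stellate cells of the molecular layer and Golgi cells of the granular layer are inhibitory interneurons that use GABA, and many Golgi cells also use glycine. Impaired Purkinje cell firing is a known route to ataxia, the unsteady movement named in the title of the study.

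The study sequenced polyA-selected RNA of whole cerebellum, 1 library per mouse, from 24 mice aged about 7 weeks, with 3 males and 3 females in each of 4 genotype groups. The cKO+NDI1 mice combine a conditional knockout affecting complex I of the respiratory chain with NDI1, the NADH dehydrogenase of yeast, which regenerates NAD+ and pumps no protons. The cKO mice carry the knockout without NDI1, the NDI1 control mice express NDI1 without the knockout, and the Cre control mice have Cre recombinase without the knockout or NDI1. The labels name neither the deleted gene, nor the promoter that drives Cre, nor the floxed alleles of the controls, and the Cre status of the NDI1 control is not given in the sources used here. The published mouse line is known to delete Ndufs4, a subunit of complex I.

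Library totals ranged from 7584374 to 19785264 counts, with medians of 15281035 in cKO+NDI1, 11547903 in cKO, 15254778 in the NDI1 control and 15874079 in the Cre control. Ndufs4 averaged 101 ± 15.1 CPM (counts scaled to a common library total) in cKO+NDI1, 95.4 ± 21.5 in cKO, 144 ± 41.8 in the NDI1 control and 134 ± 23.6 in the Cre control (SD, n = 6 each). A count over the whole gene includes exons outside the deleted part, so these levels do not check the genotype labels. All 31 genes and all 16 further Purkinje cell genes and 12 further interneuron genes of 2 wider lists were detected in every library, as were all 10 granule neuron markers. Levels here are CPM on library sizes scaled by TMM factors, and tests are edgeR's quasi-likelihood test with Benjamini-Hochberg adjustment over 15300 genes. In whole tissue, fewer cells of a type and less RNA per cell cannot be told apart.

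Levels per kilobase of the longest annotated transcript spread widely over the list. On this scale (mean over 24 libraries) Pvalb, the calcium buffer parvalbumin of Purkinje cells and molecular layer interneurons, led with 1457 CPM per kilobase. Car8, a carbonic anhydrase-like protein that binds the IP3 receptor, followed with 912 and Pcp4, a calmodulin regulator, with 852. Pcp2, a modulator of G proteins, stood at 424, Calb1, the calcium buffer calbindin, at 383 and Slc1a6 at 121 CPM per kilobase. Of the enzymes that make GABA, Gad1 stood at 175 and Gad2 at 21.97 CPM per kilobase, and the vesicular transporter of GABA and glycine, Slc32a1, at 64.4. The transcription factors and the markers of rarer cells were among the lowest, with Lhx1 at 14.9, the glycine transporter Slc6a5 of Golgi cells at 3.74, Pax2 at 1.80 and Foxp2 at 1.54 CPM per kilobase. The lowest of the 31 was Ryr1, a very long transcript, at 0.870. Transcripts in use may be shorter than the longest one, so these levels are rough.

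The promoter windows of 3 Purkinje cell genes are shown because the results set them apart. Slc1a6 passed in cKO against the Cre control, while Pcp2 and Pcp4 did not and moved across libraries with gene length. All 3 are known targets of the nuclear receptor ROR alpha of Purkinje cells, whose response element has the core AGGTCA. Each sequence is the 250 bases before a RefSeq start (build GRCm38.p6), with matches to AGGTCA or its reverse complement TGACCT in capitals.
Slc1a6, chr10:78780246-78780495, plus strand: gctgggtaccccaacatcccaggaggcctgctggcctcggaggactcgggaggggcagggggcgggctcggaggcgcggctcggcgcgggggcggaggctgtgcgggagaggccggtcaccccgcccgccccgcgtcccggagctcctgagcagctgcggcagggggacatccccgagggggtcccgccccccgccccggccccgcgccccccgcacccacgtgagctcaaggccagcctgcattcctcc
Pcp2, chr8:3625548-3625797, minus strand, the most upstream of its 4 windows: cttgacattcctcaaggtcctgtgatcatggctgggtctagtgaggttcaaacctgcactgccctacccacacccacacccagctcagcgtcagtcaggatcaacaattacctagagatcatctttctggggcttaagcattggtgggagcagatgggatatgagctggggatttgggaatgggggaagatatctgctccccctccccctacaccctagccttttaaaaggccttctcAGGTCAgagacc
Pcp4, chr16:96467356-96467605, plus strand: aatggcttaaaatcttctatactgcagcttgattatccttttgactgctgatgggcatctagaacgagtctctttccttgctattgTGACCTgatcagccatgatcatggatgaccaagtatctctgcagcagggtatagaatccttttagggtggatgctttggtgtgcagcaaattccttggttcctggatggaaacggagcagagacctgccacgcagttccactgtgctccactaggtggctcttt
The Pcp2 match began at position -12 and the Pcp4 match at position -164 from the start, and the Slc1a6 window held none. Among 32851 RefSeq windows of this length, 14% held the core on either strand. Of the 31 genes, 23 had a window, and 6 of them (26.1%) held the core in at least 1 window, against 15.8% of all genes with a window. The windows of Gad1, Gad2 and Pvalb, which did not pass in cKO against the Cre control, held none either. A match here is a match of letters only, and its relation to the test results was not tested.

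The comparison of cKO with the Cre control sets mice with the knockout beside mice without it, neither with NDI1. The floxed alleles of the controls are not given. An effect of the knockout therefore cannot be told apart from a difference in these. Slc1a6 fell, and no other gene of the 31 passed: 1 of 31 was called, lower, against 4.87% of all genes tested (745 of 15300) in either direction and 1.81% lower. At an unadjusted p under 0.05 there were 3 of 31, against 18.5% of all genes, and DESeq2 called 2 of 31, Slc1a6 and Inpp5a, against 7.58%. Of the 31 log2 fold changes 21 were negative, with a median of -0.07. Over all genes tested the median was -0.01 and 51.9% were negative. The 31 are not independent, since all share the libraries.

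Slc1a6 encodes EAAT4, the glutamate transporter of Purkinje cell dendrites and spines, and lies on chromosome 10 from 78780496 to 78814825 (mm10, plus strand). The 6 cKO libraries had a lowest, median and highest level of 202, 212 and 226 CPM, against 252, 267 and 311 CPM in the Cre control. Every cKO library lay below every Cre control library, which held for 1 of the 31 genes and for 2.69% of all genes in either direction. The level averaged 213 ± 9.28 CPM in cKO and 270 ± 21.7 CPM in the Cre control (SD, n = 6 each), a log2 fold change of -0.34 ± 0.06 (SE; adjusted p = 0.00267). The highest Cre control library, F2 with 311 CPM, stood apart from its group, and without it the log2 fold change was -0.31 (adjusted p = 0.00785). In males alone, with 3 libraries a group, it was -0.28 (adjusted p = 0.161), and in females alone -0.42 (adjusted p = 0.0344). The difference between the sexes was not tested.

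Some markers of Bergmann glia, the glia that wrap Purkinje cell dendrites and clear glutamate there, were also lower in cKO. The summed level of 8 Bergmann glia and astrocyte genes, all above 0 in every library, ranged from 4695 to 5167 CPM in cKO and from 5431 to 5757 CPM in the Cre control. It ranged from 4854 to 5254 CPM in cKO+NDI1 and from 5259 to 5970 CPM in the NDI1 control. Of the 8, 2 were lower in cKO by the test, against 1.81% of all genes lower and 4.87% called in either direction. Slc1a3, the glial glutamate transporter, stood at 1743 CPM in cKO and 2112 CPM in the Cre control (log2 -0.28 ± 0.05, adjusted p = 0.00262). Fabp7, a fatty acid binding protein, stood at 73.1 CPM in cKO and 144 CPM in the Cre control (log2 -0.97 ± 0.18, adjusted p = 0.00211). Gfap, an intermediate filament of astrocytes, had the 1 positive fold change of the 8, at 519 ± 76.5 CPM in cKO and 436 ± 27.6 CPM in the Cre control (log2 0.25 ± 0.07, adjusted p = 0.0536). The other 5 did not pass, with log2 fold changes of -0.10 for Slc1a2, -0.05 for Gdf10, -0.10 for Aqp4, -0.30 for Hopx and -0.30 for S100b. The part of these cells in the level of Slc1a6 was not tested.

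**Figure D1:**
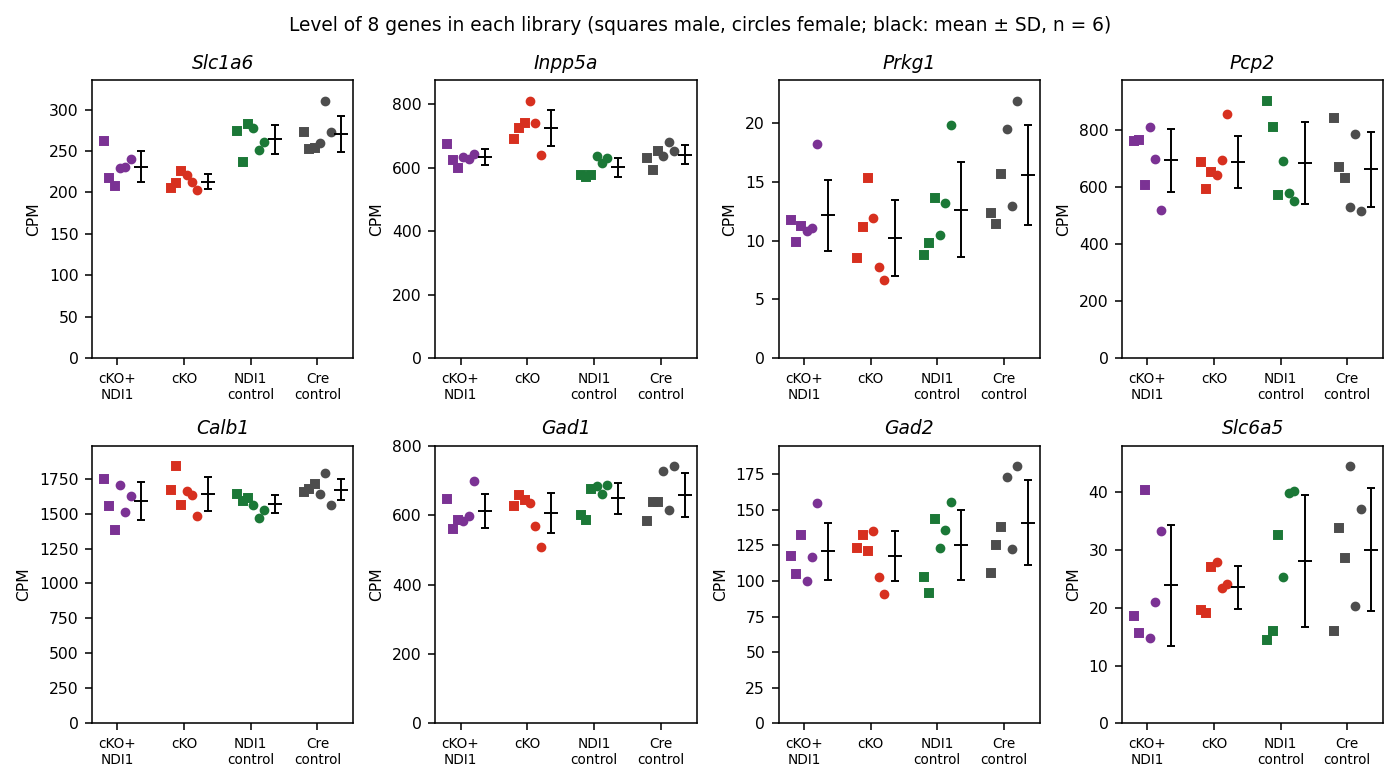
Level in CPM (vertical axis) of 8 genes in each of the 24 libraries, by genotype group; squares are males, circles are females, and black marks give the mean ± SD (n = 6). The cKO libraries of Slc1a6 sit between 202 and 226 CPM, all below the Cre control, while the groups overlap for the other 7 genes.

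Inpp5a, the phosphatase that ends the IP3 signal (chromosome 7, 139389109 to 139579652), came next by p. Its levels in cKO had a lowest, median and highest of 641, 734 and 811 CPM, against 593, 644 and 681 CPM in the Cre control. All but 1 cKO library (F3, 641 CPM) lay above all Cre control libraries. The log2 fold change was 0.18 ± 0.05 with an adjusted p = 0.0502, which just missed the threshold of 0.05. Without cKO F3, the lowest of its group, it was 0.21 and passed (adjusted p = 0.0149). In 23 of 24 fits that left out 1 library it did not pass. It passed with DESeq2 (adjusted p = 0.00935), and over all alternative fits the adjusted p reached 0.378. Nkx6-2, a transcription factor gene of oligodendrocytes, overlaps Inpp5a on the opposite strand and averaged 34.0 ± 9.08 CPM in cKO and 33.6 ± 7.54 CPM in the Cre control. Its counts over all libraries came to 5.14% of those of Inpp5a, and whether the counting used strand is not given in the sources used here.

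Among the calcium binding proteins and small regulators, 0 of 8 passed and 6 had negative fold changes. Prkg1, the cGMP-dependent kinase of Purkinje cell long-term depression (chromosome 19, 30567551 to 31765033), had the largest fold change of the 31 in size. It ranged from 6.68 to 15.4 CPM in cKO with a median of 9.85, and from 11.4 to 21.9 CPM in the Cre control with a median of 14.3, so the groups overlapped. The log2 fold change was -0.58 ± 0.21 (adjusted p = 0.118). Without cKO M3, the highest of its group, it was -0.77 and passed (adjusted p = 0.0280). In 23 of 24 fits that left out 1 library it did not pass. Over the other alternative fits it ranged from -1.07 to -0.16, and the adjusted p reached 0.685. Cstf2t lies within Prkg1 on the opposite strand and had 889% of the counts of Prkg1, at 111 ± 6.45 CPM in cKO and 124 ± 3.01 CPM in the Cre control. The overlap is one of whole gene spans and exons were not compared. Whether any reads of Cstf2t enter the level given for Prkg1 was not tested.

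Pcp2 (chromosome 8, 3623371 to 3625545) had a lowest, median and highest of 591, 670 and 855 CPM in cKO, against 513, 650 and 840 CPM in the Cre control. Its log2 fold change of 0.06 ± 0.14 was within its error (adjusted p = 0.876). Calb1 (chromosome 4, 15881264 to 15908064), the most even of the Purkinje cell markers across libraries, had 1479, 1649.5 and 1838 CPM in cKO and 1561, 1664 and 1792 CPM in the Cre control. The groups lay on top of each other, with a log2 fold change of -0.03 ± 0.06 (adjusted p = 0.877). Car8 (chromosome 4, 8143362 to 8239041) had 2975, 3076 and 3699 CPM in cKO, against 3173, 3594 and 4215 CPM in the Cre control, and its log2 fold change of -0.19 ± 0.09 did not pass (adjusted p = 0.285). The other 4 of this role (Pcp4, Pvalb, Ppp1r17 and Rgs8) had log2 fold changes between -0.08 and 0.04.

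Among the signalling proteins, 1 of 10 passed, which was Slc1a6. Plcb3, a phospholipase C beta of Purkinje cells (chromosome 19, 6953714 to 6969759), had 58.6, 72.1 and 80.7 CPM in cKO, against 70.6, 79.5 and 90.3 CPM in the Cre control. Its groups overlapped, with a log2 fold change of -0.16 ± 0.09 (adjusted p = 0.343). Plcb4, its partner isoform downstream of the metabotropic receptor, averaged 208 ± 31.7 CPM in cKO and 253 ± 60.5 CPM in the Cre control (log2 -0.26 ± 0.15, adjusted p = 0.379). The calcium pump gene Atp2b2 had a log2 fold change of -0.18 ± 0.17. The scaffold Homer3, the G protein subunit Gng13, the Notch ligand-like Dner, the calcium release channel Ryr1 and the endocannabinoid synthase Dagla lay between -0.08 and 0.07.

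The transcription factors that mark or specify Purkinje cells also did not pass, 0 of 6. Their log2 fold changes lay between -0.16 for Skor2, a corepressor, and 0.23 for the homeobox gene En1, with Foxp2, Lhx1, Lhx5 and Ebf2 between. All are low: the highest was Lhx1, at 60.4 ± 10.2 CPM in cKO and 55.8 ± 9.66 CPM in the Cre control.

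None of the 7 genes of inhibitory transmission and interneurons passed, and all 7 had negative fold changes, against 51.9% of all genes tested. Gad1, Gad2, Slc6a5, Kit and Pax2 moved together across libraries with gene length, so the 7 signs are not independent. A wider list of interneuron genes, given below, held both signs. Gad1 (chromosome 2, 70553072 to 70602014) had a lowest, median and highest of 509, 632 and 659 CPM in cKO, against 584, 639 and 741 CPM in the Cre control (log2 -0.11 ± 0.07, adjusted p = 0.453). Gad2 (chromosome 2, 22622205 to 22693874) had 90.8, 122 and 135 CPM in cKO, against 106, 132 and 181 CPM in the Cre control (log2 -0.25 ± 0.14, adjusted p = 0.363). Both genes overlapped between groups. In males alone the log2 fold changes turned to 0.05 for Gad1 and 0.02 for Gad2, neither past the threshold. Slc6a5 (chromosome 7, 49910146 to 49963856) had 19.1, 23.7 and 27.9 CPM in cKO, against 16, 31.3 and 44.5 CPM in the Cre control (log2 -0.35 ± 0.27, adjusted p = 0.543). The Cre control spanned the whole cKO range. Slc32a1, the receptor kinase gene Kit of molecular layer interneurons, the sorting receptor gene Sorcs3 and the paired-box gene Pax2 of Golgi cells lay between -0.14 and -0.07 on the log2 scale.

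Wider lists of the same cells were counted by the same test. Of 12 further interneuron genes, 1 rose and 1 fell in cKO against the Cre control, where 4.87% of all genes were called. Lypd6, a regulator of acetylcholine receptors, averaged 56.8 CPM in cKO and 44.9 CPM in the Cre control (log2 0.34 ± 0.09, adjusted p = 0.0322). Ptprk, a receptor phosphatase, averaged 26.7 CPM in cKO and 37.5 CPM in the Cre control (log2 -0.48 ± 0.11, adjusted p = 0.0153). DESeq2 called 2 of the 12, against 7.58% of all genes. In the other 6 comparisons 0 of these 12 and 0 of 16 further Purkinje cell genes passed with edgeR, with 0 to 5 of the 16 and 0 to 3 of the 12 at an unadjusted p under 0.05. Over all genes these 6 comparisons called from 0% to 1.25%, and from 4.48% to 16.9% had an unadjusted p under 0.05. There DESeq2 called 0 of the 16 in each, and of the 12 it called 1 between cKO+NDI1 and cKO, 2 between cKO+NDI1 and the Cre control and 0 in the others. Over all genes DESeq2 called from 0.0458% to 3.21% in these 6 comparisons.

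The comparisons of cKO+NDI1 ask how these genes stood when NDI1 was added to the knockout. Against cKO, 0 of the 31 genes passed, beside 0.209% of all genes called (32 of 15300). At an unadjusted p under 0.05 there was 1 of 31, against 8.56% of all genes, and DESeq2 called 1, Inpp5a, against 0.719%. Against the NDI1 control, where both groups carry NDI1, 0 of the 31 passed with edgeR, and 0% of all genes were called. There 1 of 31 had an unadjusted p under 0.05, against 4.48% of all genes, and DESeq2 called 0, against 0.15%. The Cre status and floxed alleles of the NDI1 control are not given. An effect of the knockout cannot be told apart from a difference in these there either. Against the Cre control 0 of 31 passed with edgeR, beside 1.25% of all genes, and 1 of 31 had an unadjusted p under 0.05, against 13.5%. DESeq2 called 1 there, Slc1a6, against 3.21% of all genes. No gene of the 31 was free of overlap between groups in these 3 comparisons, against 0.954%, 0.314% and 1.58% of all genes in the same order.

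Slc1a6 had a lowest, median and highest of 208, 230 and 262 CPM in cKO+NDI1, 202, 212 and 226 CPM in cKO and 237, 268 and 283 CPM in the NDI1 control. The cKO+NDI1 libraries overlapped those of both groups. The log2 fold change was 0.12 ± 0.06 against cKO (adjusted p = 0.651) and -0.19 ± 0.06 against the NDI1 control (adjusted p = 0.781). Against the Cre control it was -0.23 ± 0.06 (adjusted p = 0.0761). It passed without cKO+NDI1 M1, the highest library of its group (adjusted p = 0.0435), and with DESeq2 (adjusted p = 0.0175). In 23 of 24 fits that left out 1 library it did not pass. The interaction of knockout and NDI1, the test of whether the effect of the knockout differed with NDI1, gave 0.15 ± 0.09 (adjusted p = 0.9999). The comparisons against cKO and against the Cre control share libraries with the comparison of cKO and the Cre control.

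Inpp5a had a lowest, median and highest of 599, 630 and 675 CPM in cKO+NDI1, against 641, 734 and 811 CPM in cKO. The groups overlapped in the lowest cKO library alone, F3. The log2 fold change was -0.19 ± 0.05 (adjusted p = 0.165, unadjusted p = 0.00112), and it passed with DESeq2 (adjusted p = 0.0201). Markers of oligodendrocytes also differed in this comparison: the summed level of 7 of their genes ranged from 8632 to 10590 CPM in cKO+NDI1 and from 11054 to 17472 CPM in cKO. This sum ranged from 9133 to 11595 CPM in the NDI1 control and from 11693 to 13590 CPM in the Cre control. Unlike Inpp5a, it was not highest in cKO by the median, at 12346 CPM in cKO and 12568.5 CPM in the Cre control. Of the 7, 4 were lower in cKO+NDI1 than in cKO by the test, against 0.209% of all genes called in either direction. None of the 7 was at 0, and their part in the level of Inpp5a was not tested. In the NDI1 control Inpp5a stood at 571, 596 and 636 CPM, so that cKO was the high group of the 4.

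The other genes with the smallest p in these comparisons all missed the threshold and overlapped between groups. Against cKO they were Ebf2, Car8 and Foxp2. Ebf2, a transcription factor of Purkinje cell subsets, averaged 10.3 ± 1.22 CPM in cKO+NDI1 and 11.7 ± 2.24 CPM in cKO (log2 -0.19 ± 0.13). Car8 averaged 3480 ± 398 CPM in cKO+NDI1 and 3182 ± 276 CPM in cKO (log2 0.13 ± 0.09), and Foxp2 9.83 ± 1.36 CPM in cKO+NDI1 and 11.1 ± 1.62 CPM in cKO (log2 -0.20 ± 0.18). Against the NDI1 control they were Slc32a1, En1 and Sorcs3. Slc32a1 averaged 172 ± 10.8 CPM in cKO+NDI1 and 186 ± 8.64 CPM in the NDI1 control (log2 -0.12 ± 0.06). En1 averaged 5.39 ± 0.755 CPM in cKO+NDI1 and 4.40 ± 0.732 CPM in the NDI1 control (log2 0.29 ± 0.16), and Sorcs3 22.5 ± 2.82 CPM in cKO+NDI1 and 25.1 ± 2.07 CPM in the NDI1 control (log2 -0.16 ± 0.11). Against the Cre control all 4 had negative fold changes. Slc32a1 averaged 172 ± 10.8 CPM in cKO+NDI1 and 186 ± 9.99 CPM in the Cre control (log2 -0.12 ± 0.06), and Plcb4 208 ± 34.8 CPM in cKO+NDI1 and 253 ± 60.5 CPM in the Cre control (log2 -0.28 ± 0.15). Prkg1 averaged 12.2 ± 3.04 CPM in cKO+NDI1 and 15.6 ± 4.26 CPM in the Cre control (log2 -0.37 ± 0.21). Cstf2t, which overlaps Prkg1, was itself lower there, at 106 CPM in cKO+NDI1 and 124 CPM in the Cre control (log2 -0.23 ± 0.06, adjusted p = 0.0491), and its part in the level of Prkg1 was not tested. Kit averaged 205 ± 26.7 CPM in cKO+NDI1 and 234 ± 33.0 CPM in the Cre control (log2 -0.18 ± 0.10). Each value is a mean ± SD over 6 libraries, and each fold change has its SE.

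Pcp2 averaged 693 ± 111 CPM in cKO+NDI1, against 683 ± 145 CPM in the NDI1 control, a log2 fold change of 0.02 ± 0.14. Calb1 averaged 1588 ± 134 CPM in cKO+NDI1, against 1566 ± 63.2 CPM in the NDI1 control (log2 0.02 ± 0.06), and the groups overlapped for both. Gad1 averaged 612 ± 50.2 CPM in cKO+NDI1 and 649 ± 44.4 CPM in the NDI1 control (log2 -0.08 ± 0.07). Gad2 averaged 121 ± 20 CPM in cKO+NDI1 and 125 ± 24.7 CPM in the NDI1 control (log2 -0.05 ± 0.14). The 2 enzymes of GABA synthesis thus had the same sign here and neither passed (adjusted p = 0.998 for both).

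The NDI1 control was set against the Cre control to compare mice with and without NDI1, where neither has the knockout. The Cre status of the NDI1 control and the floxed alleles of the controls are not given. An effect of NDI1 therefore cannot be told apart from a difference in these, here or in the interaction. Again 0 of 31 genes passed with edgeR, against 0.00654% of all genes, and DESeq2 called 0, against 0.451%. No gene of the 31 was free of overlap between these groups, against 0.386% of all genes. At an unadjusted p under 0.05 there was 1 of 31, against 9.2% of all genes. That gene was Rgs8, a regulator of G protein signalling of Purkinje cells (chromosome 1, 153653025 to 153700323), with a lowest, median and highest of 942, 1189 and 1404 CPM in the NDI1 control and 1180, 1389 and 1591 CPM in the Cre control. The groups overlapped, with a log2 fold change of -0.22 ± 0.09 (adjusted p = 0.474). Next by p were Plcb4 (log2 -0.29 ± 0.15), Inpp5a (-0.09 ± 0.05), Ebf2 (-0.22 ± 0.13) and Calb1 (-0.09 ± 0.06), all with an adjusted p of 0.567 or more. For the interaction, 0 of 31 passed with edgeR and 0 with DESeq2, against 0% and 0.0458% of all genes, and 0 had an unadjusted p under 0.05, against 5.18%. Prkg1 had the largest interaction in size, 0.51 ± 0.30 (adjusted p = 0.9999).

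Males and females, 12 libraries each, differed by edgeR's test in 0 of the 31 genes, against 0.085% of all genes tested. At an unadjusted p under 0.05 there were 2 of 31, against 16.9% of all genes, and DESeq2 called 0, against 0.248%. The smallest p belonged to Ppp1r17, an inhibitor of protein phosphatases in Purkinje cells, at 549 CPM in males and 469 CPM in females (log2 0.22 ± 0.09). Atp2b2 stood at 555 CPM in males and 671 CPM in females (log2 -0.27 ± 0.12), and Pvalb at 1535 CPM in males and 1311 CPM in females (log2 0.22 ± 0.10). The adjusted p was 0.291 for each of the 3.

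The libraries differed in a way that the genotype groups did not follow and that touched most of the 31 genes. For each library a slope of log2 CPM on log10 gene length (the longest annotated transcript) was taken over 13073 genes outside the list, relative to the mean of all libraries. A positive slope means that long genes read high and short genes low in that library. The slope averaged -0.04 ± 0.36 in cKO+NDI1, 0.12 ± 0.32 in cKO, -0.15 ± 0.61 in the NDI1 control and 0.08 ± 0.53 in the Cre control (SD, n = 6 each). It was lowest in the NDI1 control M2 and M1 (-0.96 and -0.81) and highest in the Cre control F3 (0.83), and averaged -0.17 in males and 0.17 in females. The leading principal component of the same genes held 42.8% of the variance and had a correlation of 0.988 in size with this slope. The labels give no batch or RNA quality for a library, and what sets the slope was not tested.

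Over the 24 libraries, 22 of the 31 genes had a Pearson correlation with the slope of at least 0.7 in size, against 43.6% of the other genes; genes are not independent here, since all share the libraries. The 7 that ran against the slope were Pcp2, Pcp4, Pvalb, Car8, Ppp1r17, Homer3 and Gng13, with lengths from 641 to 3853 bases and a median of 1606. The 15 that ran with it were Foxp2, Lhx1, Ebf2, Rgs8, Prkg1, Plcb4, Dner, Ryr1, Atp2b2, Dagla, Gad1, Gad2, Slc6a5, Kit and Pax2, with lengths from 3601 to 15358 bases and a median of 5634. The remaining 9, Slc1a6, Calb1, Slc32a1 and Inpp5a among them, lay between, with a median length of 2826 bases. Markers of Purkinje cells stood on both sides: r was -0.91 for Pcp2 and 0.91 for Rgs8 (Spearman's rho -0.94 and 0.86). Across the 31 genes, r with the slope and the log10 gene length had a Pearson correlation of 0.817 and a rank correlation of 0.844, given as a description. The genes with the smallest p between males and females, Ppp1r17, Atp2b2 and Pvalb, are all among the 22. With the slope as a covariate, a fit chosen after the data were seen, their log2 difference of males over females was 0.05 ± 0.04 for Ppp1r17, -0.02 ± 0.03 for Atp2b2 and 0.01 ± 0.04 for Pvalb (adjusted p = 0.900, 0.957 and 0.988 by edgeR), beside 0.22, -0.27 and 0.22 without it.

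**Figure D2:**
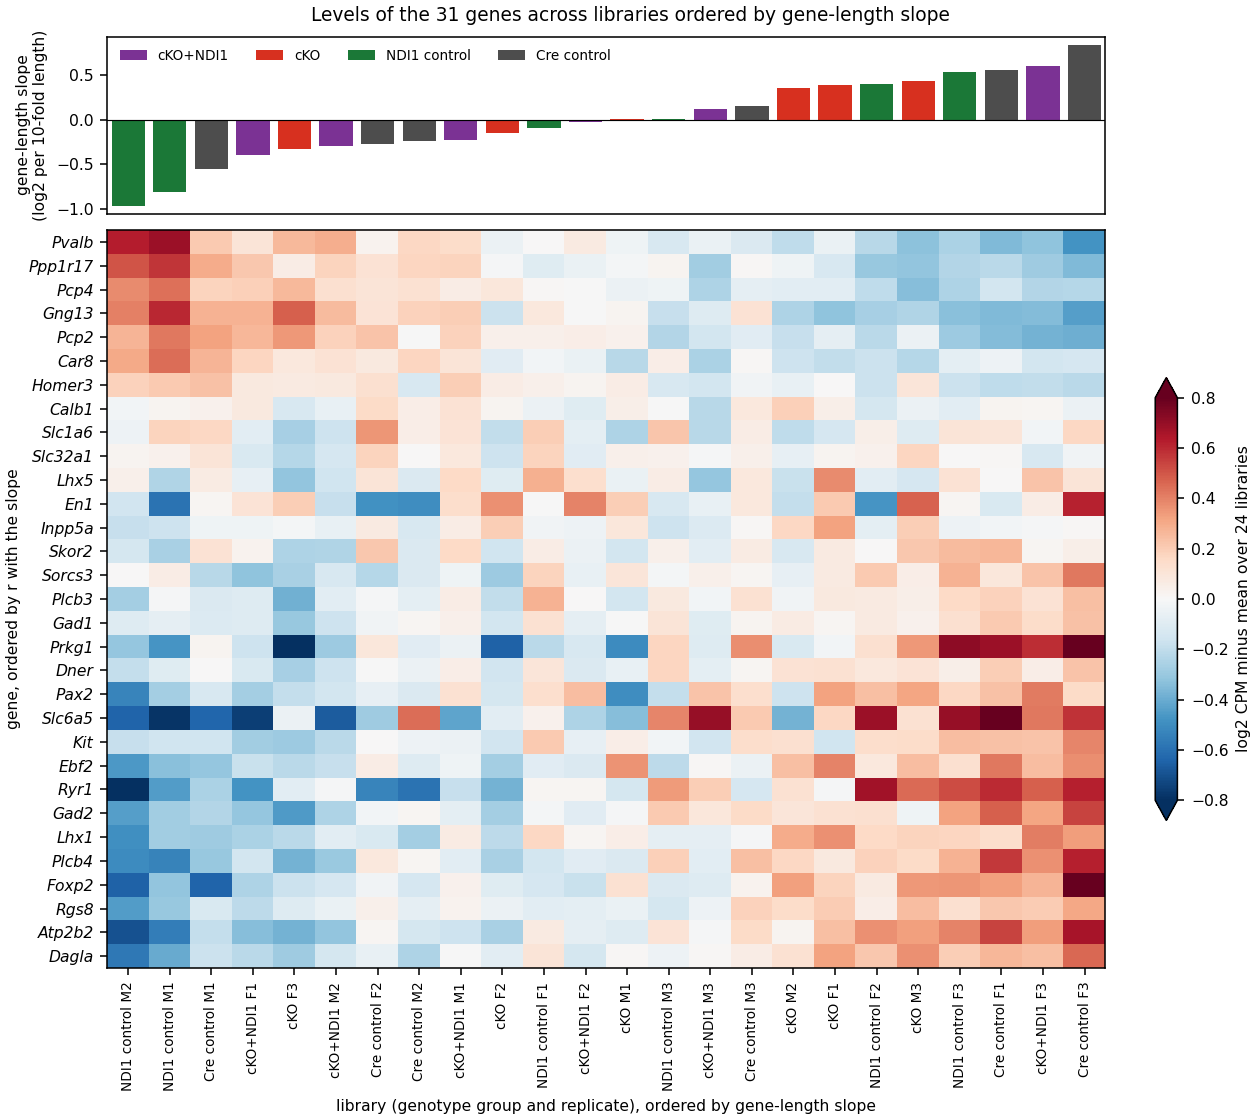
Upper panel: gene-length slope of each library (log2 per 10-fold length), coloured by genotype group. Lower panel: log2 CPM of each of the 31 genes minus its mean over the 24 libraries, with libraries ordered by slope; Pvalb and its neighbours at the top turn from red to blue from left to right, Dagla and Atp2b2 at the bottom turn the other way, and Calb1 and Slc1a6 in the middle show no such turn.

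Pvalb and Atp2b2 show the 2 directions. Pvalb (chromosome 15, 78191114 to 78206400) had an r of -0.95 with the slope (rho -0.95, permutation p = 1e-05 for each, the smallest that 100000 permutations can give; adjusted p = 1.82e-05 over 31 genes). Without the 2 libraries farthest from the median slope, the NDI1 control M2 and the Cre control F3, r was -0.92. Atp2b2 (chromosome 6, 113745669 to 114042613) had an r of 0.94 (rho 0.94, the same permutation p for each), and 0.91 without those 2 libraries. Within sexes r was -0.97 in males and -0.93 in females for Pvalb, and 0.93 in males and 0.94 in females for Atp2b2. After the mean of each genotype group was subtracted, r was -0.95 for Pvalb and 0.98 for Atp2b2. Slc1a6, the gene called lower in cKO, had an r of -0.04 (rho -0.0087, permutation p = 0.852 for r), and Inpp5a one of 0.40 (rho 0.36, permutation p = 0.0503 for r, adjusted p = 0.0599).

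**Figure D3:**
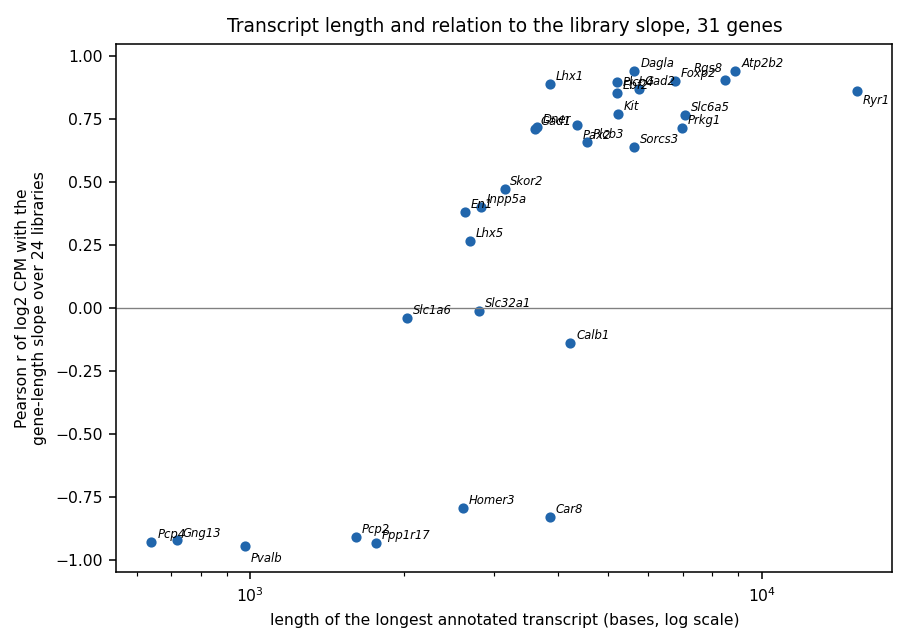
Each of the 31 genes by the length of its longest annotated transcript (horizontal axis, bases, log scale) and its Pearson r with the gene-length slope over 24 libraries (vertical axis). The short genes Pcp4, Gng13, Pvalb and Pcp2 sit near -0.9 and the long genes Atp2b2, Rgs8 and Foxp2 near 0.9, while Car8 and Homer3 sit low at middle lengths.

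The fit was repeated with the slope of each library as a covariate, an alternative chosen after the data were seen. The median standard error of the 31 genes in cKO against the Cre control was 0.05 with the slope and 0.13 without it. In that fit 10 of the 31 genes passed, 9 lower and 1 higher in cKO, against 20.5% of all genes tested (3140 of 15300) and 10.8% lower. The 9 were Slc1a6 (log2 -0.34 ± 0.05), Prkg1 (-0.63 ± 0.10), Plcb4 (-0.29 ± 0.05), Gad2 (-0.27 ± 0.05), Atp2b2 (-0.23 ± 0.04), Car8 (-0.18 ± 0.05), Plcb3 (-0.17 ± 0.05), Kit (-0.15 ± 0.05) and Gad1 (-0.12 ± 0.04). Inpp5a was the 1 higher (0.17 ± 0.04). Without the slope the SE was 0.21 for Prkg1, 0.15 for Plcb4, 0.17 for Atp2b2 and 0.14 for Gad2. A correlation with the slope of at least 0.7 in size was more common among the 31 genes than among other genes. In this fit, here and below, shares of the 31 and of all genes are therefore not like for like. The slope was itself taken from counts of these libraries.

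By role, the covariate fit called 0 of 6 transcription factors, 2 of 8 calcium binding proteins and small regulators, 5 of 10 signalling proteins, 2 of 4 genes of inhibitory transmission and 1 of 3 interneuron markers. Pcp2 (0.09 ± 0.05) and Calb1 (-0.02 ± 0.05) did not pass there either. For cKO+NDI1 against the Cre control it called 4, all lower: Slc1a6 (-0.23 ± 0.05), Plcb4 (-0.19 ± 0.05), Atp2b2 (-0.19 ± 0.04) and Gad2 (-0.15 ± 0.05), against 10.4% of all genes and 5.65% lower. It called Inpp5a in cKO+NDI1 against cKO (-0.19 ± 0.04), against 2.56% of all genes, and Rgs8 in the NDI1 control against the Cre control (-0.14 ± 0.04), against 1.81%. Between cKO+NDI1 and the NDI1 control it called 0 of 31, against 0.333% of all genes. With offsets that remove the trend on gene length in each library instead, 3 of 31 passed in cKO against the Cre control, against 10.2% of all genes: Slc1a6 (-0.33 ± 0.08), Prkg1 (-0.59 ± 0.14) and Gad2 (-0.26 ± 0.08). Of the wider lists, the covariate fit called 7 of 16 further Purkinje cell genes lower in cKO than in the Cre control. It called 4 of 12 further interneuron genes lower and 1 higher. Of all genes 10.8% were lower and 20.5% were called in either direction. How far these wider lists ran with the slope is not given here.

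**Figure D4:**
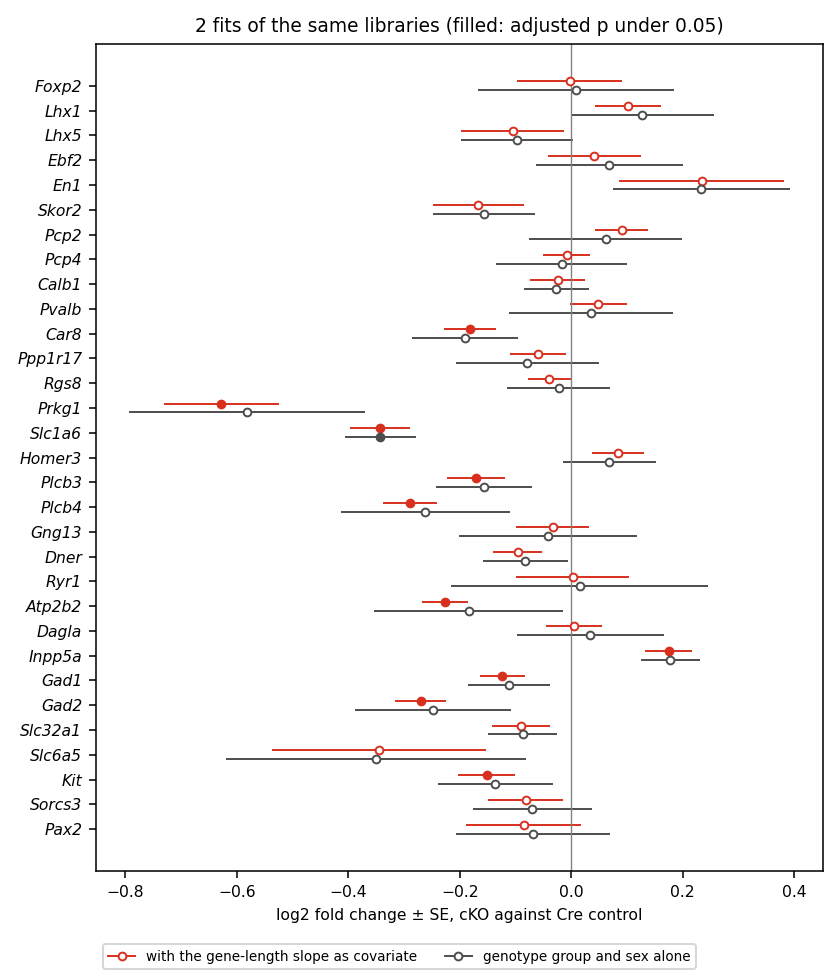
Log2 fold change ± SE of the 31 genes in cKO against the Cre control, with the gene-length slope as a covariate (red) and with genotype group and sex alone (grey). Filled points passed an adjusted p under 0.05: 10 red points and the grey point of Slc1a6.

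The Golgi cell marker Slc6a5 was set beside markers of the brainstem, a neighbouring tissue. Slc6a5, which glycinergic neurons of the brainstem also express, ranged from 14.4 to 44.5 CPM over the 24 libraries. The summed level of 20 brainstem genes, most of them Hox genes, ranged from 1.78 to 38.9 CPM, and only 3 of the 20 had enough counts to be tested. Slc6a5 had an r of 0.638 with this sum (rho 0.763, permutation p = 0.00054 and 2e-05, adjusted p = 0.00102 and 6e-05 over 3 relations). Without the 2 libraries farthest from the median sum, cKO F3 and the Cre control M2, r was 0.778. It was 0.887 in males and 0.260 in females, and 0.668 after the mean of each group was subtracted. In cKO F3, with the highest sum (38.9 CPM), Slc6a5 stood at 24.0 CPM. Over all 24 libraries Slc6a5 thus moved with brainstem markers, though weakly in females, and with the gene-length slope (r = 0.77). The part of these in its level was not tested.

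Pax2, the transcription factor of Golgi and other inhibitory interneuron precursors (chromosome 19, 44756045 to 44837871), ranged from 5.35 to 10.3 CPM. It had an r of 0.648 with Slc6a5 (rho 0.659, permutation p = 0.00068 and 0.00047, adjusted p = 0.00102 and 0.000705), 0.607 without the Cre control F1 and the NDI1 control M1, and 0.718 after group means were subtracted. Within sexes r was 0.544 in males and 0.664 in females. Both genes ran with the gene-length slope (r = 0.73 for Pax2 and 0.77 for Slc6a5), and its part in their correlation was not tested. Pcp2 and Calb1, both confined largely to Purkinje cells in the cerebellar cortex, had an r of 0.157 (rho 0.163, permutation p = 0.466 and 0.446, adjusted p = 0.466 and 0.446). With the gene-length slope, r was -0.91 for Pcp2 and -0.14 for Calb1, and its part in their low correlation was not tested.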

How the data were processed

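The deposited table gives counts of reads per gene as whole numbers that the authors left unscaled. The submitters' processing notes name build mm10 and the tools STAR, HTSeq, Trimmomatic and bcl2fastq; versions and the strand setting are not given in the sources used here. Coordinates are those of the deposited table. Gene length is the longest transcript in GENCODE vM21 (GRCm38, the same build), since for 72.8% of genes the length column of the table equals the summed exons of all transcripts. Ensembl identifiers matched a symbol for 42462 of 43430 genes, and 0 library columns were left unused.

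Groups and sexes come from the labels, where replicates are separate mice. Within groups, all 60 pairs of libraries differed beyond sampling noise (chi-square at least 4.67 per degree of freedom). Counts were scaled by TMM, filtered with filterByExpr by group, and tested with edgeR 4.0.16 (limma 3.58.1, R 4.3.3; quasi-likelihood F test, robust dispersion) in 1 fit of 24 libraries with group and sex; 15300 genes were adjusted together at a threshold of 0.05. Each SE is the log2 fold change over the root of F. The fit was tested on simulated data that held no trend on gene length, so that test does not show how the fit behaves under such a trend. DESeq2 1.42.0 was an alternative. Correlations used log2 CPM and 100000 permutations. The gene-length slope used 13073 genes with a mean above 2 CPM and an annotated length.

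The members, lists and tests were chosen with earlier results of these data known. Values are given for each gene that passed a comparison or whose cKO and Cre control libraries did not overlap, for the 5 smallest p per genotype comparison and the 3 smallest between sexes, and for Pcp2, Calb1, Gad1, Gad2 and Slc6a5. Interneuron genes of the wider lists are named where they passed; 1 result of the wider Purkinje cell list is not reported here. Named after their values were seen were the genes ordered by level, Plcb4 and Atp2b2 in cKO against the Cre control, Lhx1, the overlapping genes, Ndufs4, the Bergmann glia and astrocyte genes, and Pvalb with the slope.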

Additional observations from a re-analysis of the deposited data

Results flagged for a closer look

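Single libraries stood apart from the other 5 of their group in 6 of 124 sets of 6 libraries, by the gap to the nearest library against the range of the group; chance flags about 1 in 20 such sets. Each was the highest of its group. They were Lhx5 in cKO F1 (32.8 CPM), Gng13 in cKO F3 (351 CPM), Prkg1 and Plcb4 in cKO+NDI1 F3 (18.3 and 276 CPM), Slc32a1 in the NDI1 control F1 (204 CPM) and Slc1a6 in the Cre control F2 (311 CPM). Of these libraries, cKO+NDI1 F3 had the highest gene-length slope of its group (0.60) and cKO F3 the lowest of its group (-0.33).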

How the results depend on the processing

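The alternatives were RLE size factors, no filter on low counts, DESeq2, the replicate block, each sex alone and the 2 groups compared alone, and, chosen after seeing the data, the gene-length slope as covariate, offsets corrected for gene length and leaving out the 3 libraries of extreme slope (NDI1 control M1 and M2, Cre control F3). Of 363 alternative values of 38 member results, 342 kept their direction and side of the threshold, 15 gained a call, 1 lost it and 5 changed sign. The call lost was Slc1a6 in males alone (-0.28). Changes of sign in cKO against the Cre control were Calb1 (0.0015), Gad1 (0.046), Gad2 (0.0212) and Pcp2 (-0.16) in males alone and Pcp2 without the 3 libraries (-0.0129); none of these passed in either fit. Leaving out each library gave -0.033 (without cKO F3) to 0.136 (without Cre control F2) for Pcp2.

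Members called changed as follows. In cKO against the Cre control (1), DESeq2 gave 2, the slope covariate 10, length offsets 3 and males alone 0. For cKO+NDI1 against the Cre control (0), DESeq2 gave 1 and the covariate 4. In cKO+NDI1 against cKO (0), DESeq2 and the covariate gave 1 each, and in the NDI1 control against the Cre control (0) the covariate gave 1. Leaving out each library gave 1 to 2 in cKO against the Cre control (2 without cKO F3 or cKO M3) and 0 to 1 in cKO+NDI1 against the Cre control (1 without cKO+NDI1 M1).

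All genes called moved more. In cKO against the Cre control (745), DESeq2 gave 1159, the covariate 3140, offsets 1556, females 364, males 38, no filter 425 and the 2 groups alone 263; leaving out each library gave 504 to 914. In cKO+NDI1 against the Cre control (191), the counts were 491 with DESeq2, 1592 with the covariate, 673 with offsets, 87 with no filter, 2 in females and 14 in males, and 26 to 279 leaving out each library. In cKO+NDI1 against cKO (32) they were 110 with DESeq2, 391 with the covariate, 71 with offsets, 21 with no filter, 13 in the 2 groups alone, 2 in each sex and 10 to 42 leaving out each library. For cKO+NDI1 against the NDI1 control (0) they were 23 with DESeq2, 51 with the covariate, 10 with offsets, 2 with no filter, 1 in males, 1 without the 3 libraries and 0 to 3 leaving out each library. In the NDI1 control against the Cre control (1) they were 69 with DESeq2, 277 with the covariate, 57 with offsets, 2 in females, 2 without the 3 libraries and 1 to 37 leaving out each library. For the interaction (0) DESeq2 gave 7, the covariate 59 and leaving out each library 0 to 4, and for male against female (13) 38, 23 and 10 to 33. The cause of these changes was not tested; fits of 1 sex or 2 groups hold fewer libraries.

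Same-numbered libraries of different groups had a median correlation of 0.251, after group and sex means were subtracted (19 of 36 pairs above 0.1, range -0.623 to 0.742). Pairs of the same sex with other numbers had a median of -0.094 (25 of 72 above 0.1, range -0.802 to 0.781). Once the means are subtracted, deviations within each group and sex cancel out. Positive correlations for same-numbered pairs thus go with negative ones for the others, and the 2 medians are not independent. The 6 pairs of M3 ranged from 0.345 to 0.742 and those of F1 from -0.623 to 0.659. The labels do not say whether a number marks libraries handled together, and this was not tested. With the replicate block, Slc1a6 in cKO against the Cre control was -0.34 (adjusted p = 0.00446), and genes called were 20 in cKO+NDI1 against cKO and 2 in the NDI1 control against the Cre control. Depth was lowest in cKO by the median, and the low genes En1, Pax2, Foxp2, Ebf2 and Prkg1 had the fewest counts behind them.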
